A study of Mus musculus with 57 samples.

Results

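The step from the late 1-cell to the early 2-cell stage was followed in mouse embryos carrying a knockout of MT2Mm, with the same step in wild type embryos as its background. The members were all rows of the deposited expression table with at least 1 FPKM (fragments counted per kilobase of a transcript and relative to the size of the library) in 3 of the 6 knockout libraries, which gave 12016 of 59119 rows. The same rule on the 6 control libraries gives 12311 rows. The rows just inside the rule were 4732416N19Rik (1.0001 FPKM in the library that decides it) and Ptger3 (1.0003), and those just outside were Dnajc16 and Dcdc2c (0.9999 each).

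The study sequenced total RNA in 57 samples of mouse oocytes and preimplantation embryos. 12 libraries belong to the MT2Mm experiment, 3 in each of 4 groups named Late1c_MT2Mm_ko, Early2c_MT2Mm_ko, Late1c_MT2Mm_ctrl and Early2c_MT2Mm_ctrl, all from strain BDF1 with a labelled age of 6 to 8 weeks. The knockout was made by injecting 5 to 10 pL of guide RNA (150 ng/uL) and Cas9 mRNA (100 ng/uL) into MII oocytes, and the controls are labelled wild type with no injection listed, so that injection and genotype cannot be told apart. Which MT2Mm copies were cut, in what share of cells, and how many embryos a library pools are not given in the sources used here. No row of the table is named for MT2Mm or MERVL, so no row checks the targeting itself. A separate stage series of C57BL/6 embryos had 2 columns each for the zygote and the early 2-cell embryo (E2-cell). It served as a reference from samples outside the MT2Mm experiment. No hours after fertilization are given for these zygotes or for Late1c, so the zygote to E2-cell step may not span the same time.

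MT2Mm is the long terminal repeat of the endogenous retrovirus MERVL. It acts as a promoter in the early 2-cell embryo, and genes that lie next to a copy can use it as their first exon. At this stage the embryo begins its own transcription, which in the mouse starts weakly in the late 1-cell embryo and broadens in the 2-cell embryo, while the RNA stored in the egg is deadenylated and destroyed. Genes of the 2-cell burst such as the Zscan4 cluster, the Usp17l deubiquitinases and the Obox homeobox genes are switched on briefly in this window.

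Because the repeat is shared by many loci, a sequence common to the transcripts of this window was searched for, using the stage series alone. Of all 18-base words in the GENCODE M21 transcripts, 1 differed most in its share between annotated genes that rose by at least 2 on the log2 scale from zygote to E2-cell (65 of 484, 13.4%) and the other genes tested there (95 of 16081, 0.591%). It stood on the sense strand in transcripts of 196 of 55450 GENCODE genes (0.353%), and its reverse complement in those of 16 genes (0.0289%). Of the 10877 Ensembl genes among the members, 96 (0.883%) carried it, 89 of them within the first 100 bases of a transcript and at a median position of 46. Whether it comes from MT2Mm was not tested, since no repeat annotation was used. The following stretches of lncRNAs (long noncoding RNAs) show it in capitals with its flanks, in 4 genes whose rise was called smaller in the knockout and 2 in which it was not, since the bases after it differ between them:
Gm28826: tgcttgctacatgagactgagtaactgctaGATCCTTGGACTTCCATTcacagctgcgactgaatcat
Platr31: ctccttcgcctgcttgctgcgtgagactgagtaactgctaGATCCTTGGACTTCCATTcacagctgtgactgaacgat
Gm33466: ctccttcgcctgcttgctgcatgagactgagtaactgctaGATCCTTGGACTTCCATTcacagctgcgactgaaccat
Gm38258: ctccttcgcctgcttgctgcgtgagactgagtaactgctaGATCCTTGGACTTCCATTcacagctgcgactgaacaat
Gm7969: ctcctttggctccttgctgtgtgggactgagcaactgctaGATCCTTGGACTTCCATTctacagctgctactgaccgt
Gm49064: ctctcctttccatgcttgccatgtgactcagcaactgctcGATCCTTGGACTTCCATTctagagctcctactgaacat

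In GRCm38 coordinates of the GENCODE M21 genes, Gm28826 lies at chr1:47153461-47189071 (plus strand), Platr31 at chr6:127100297-127110467 (plus), Gm33466 at chr3:157720404-157726408 (minus), Gm38258 at chr3:30552697-30564243 (minus), Gm7969 at chr13:67949751-67954507 (plus) and Gm49064 at chr13:67226997-67229969 (minus). All 6 are annotated as lncRNA genes, and the stretches are exonic.

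Depth is unknown, since the table holds FPKM and no counts. In the knockout libraries the FPKM sums were 311543 to 349962 at Late1c and 443518 to 453176 at Early2c, and 10743 to 10953 rows and then 11637 to 11886 rows reached 1 FPKM. Small and ribosomal RNA took 39.7% to 46.8% of the sum at Late1c and 56.3% to 57.5% at Early2c in the knockout, against 43.3% to 46.0% and 61.1% to 63.3% in the controls. The part of this shift in the steps described here was not tested. FPKM is relative to the library, so a lower value cannot tell less RNA of a gene from more RNA of others. Nor can it tell fewer cells with that RNA from less of it per cell. 10 markers of oocyte and embryo lay between 9.17 and 776.3 FPKM in every knockout library. Of 15 markers of cumulus and granulosa cells 2 were members, and the level summed over all 15 was 4.17 to 4.93 FPKM at Late1c and 3.41 to 3.97 at Early2c. Of 12 markers of sperm and testis 2 were members, Odf2 and Prm2, and 4 (Akap4, Prm1, Spata18 and Tnp2) were at 0 in all 12 libraries. The level summed over all 12 markers was 33.8 to 36.3 FPKM at Late1c and 39.4 to 43.6 at Early2c. Most of this sum was Odf2, with 28.5 to 30.9 FPKM at Late1c and 36.0 to 39.5 at Early2c in the knockout. Prm2 had 3.99 to 4.20 FPKM and then 2.31 to 3.19.

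Most members were called as changed in the knockout step. A row was called at a limma adjusted p under 0.05 on log2(FPKM + 0.5), the scale of every change given here, in a fit of 13180 rows over the 4 groups. Of the 12016 members 3836 rose and 4663 fell, and 3517 were not called. The majority turns with the scaling, since 4349 rose and 4118 fell after scaling to the protein-coding sum, and 3988 and 4471 by the median of ratios. Over all rows tested 70.4% were called in this step, 33.9% higher and 36.6% lower. In the control embryos 3745 members rose and 5789 fell (4587 and 4869 by the median of ratios, 4482 and 4997 by the protein-coding sum), with 79.2% of all rows tested called, 33.5% higher and 45.7% lower. The rule lets in rows by either stage: 1198 members reached 1 FPKM in no Late1c knockout library, and 390 in no Early2c knockout library, so these had to differ. Among the 9365 members at 1 FPKM or more in all 6 libraries, 2438 rose and 4009 fell.

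Large falls were fewer in the knockout with FPKM as deposited, the only scaling used for the counts and shares in this paragraph. Over all rows tested the median control step was -0.15 as deposited and 0.03 by the median of ratios. The median knockout step was -0.02 and 0.01, so the gap in large falls depends on the scaling as well. 1042 members fell by more than 1 and 46 by more than 2 on the log2 scale in the knockout, against 2414 and 438 in the controls. Large rises were closer in number, with 1301 members over 1 and 750 over 2 in the knockout, and 1369 and 820 in the controls. Of the members that rose in the knockout 81.6% also rose in the controls, and of those that rose in the controls 83.6% rose in the knockout. Of the members that fell in the knockout 92.2% fell in the controls, while of those that fell in the controls 74.2% fell in the knockout. Across the 12016 members the 2 steps, which share no library, had a Pearson r of 0.933, given as a description because the rows are not independent.

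**Figure D1:**
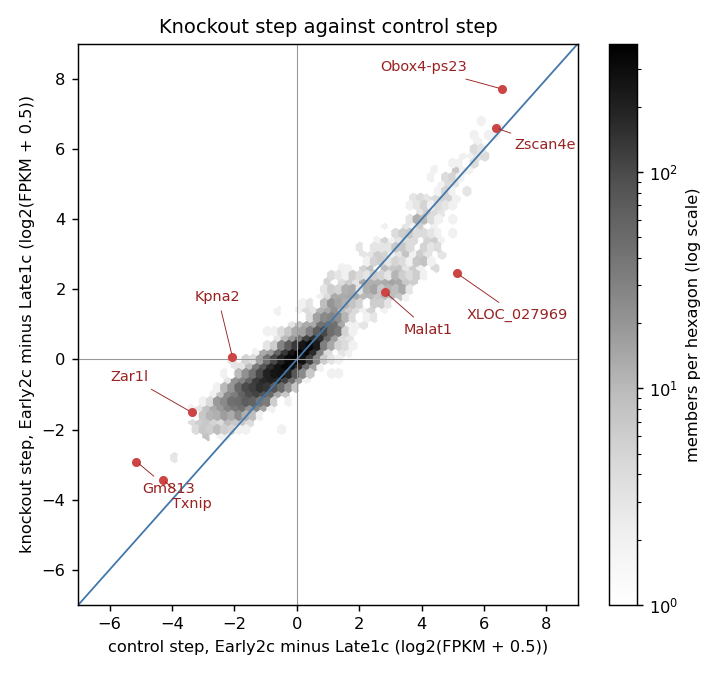
Knockout step (vertical) against control step (horizontal), each as Early2c minus Late1c on log2(FPKM + 0.5), for the 12016 members in hexagons shaded by their number on a log scale; the blue line marks equal steps. Many falling rows lie above the line, as Gm813 (-2.91 against -5.14) and Zar1l (-1.51 against -3.37) do, and XLOC_027969 (2.46 against 5.14) lies below it.

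The difference between the 2 steps, tested as an interaction in the same fit, was called for 4479 members, 3338 higher and 1141 lower in the knockout. Over all rows tested 37.3% were called, 25.7% higher and 11.6% lower. This split depends on the scaling of the libraries, because the median difference over all rows tested was 0.13 with FPKM as deposited, -0.02 after scaling by the median of ratios and 0.05 after scaling to an equal sum of protein-coding genes. The share of higher among called members was 74.5% as deposited, 51.7% by the median of ratios and 63.8% by the protein-coding sum, and all differences below are to be read against these centres. No member called both as deposited and after a scaling changed direction. Of the 4479 calls, 3390 kept their direction and call by the median of ratios and 3895 by the protein-coding sum.

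From zygote to E2-cell, 17.9% of the 19692 rows tested there were called higher and 26.2% lower, and among the members 2516 were such risers and 3533 such fallers. 1 of the 2 zygote columns carries the tag of both E2-cell columns and the other does not, and their part in these calls was not tested beyond leaving each out. The fallers had a median step of -0.60 in the knockout and -1.0 in the controls. The median difference over these fallers was 0.41 as deposited and 0.28 by the median of ratios, and 1696 of 3533 were called higher and 52 lower, or 1290 and 142 by the median of ratios. The risers had a median step of 0.55 in the knockout and 0.69 in the controls, a median difference of -0.12, or -0.28 by the median of ratios, and 216 were called higher and 681 lower, or 112 and 1058 by the median of ratios.

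**Figure D2:**
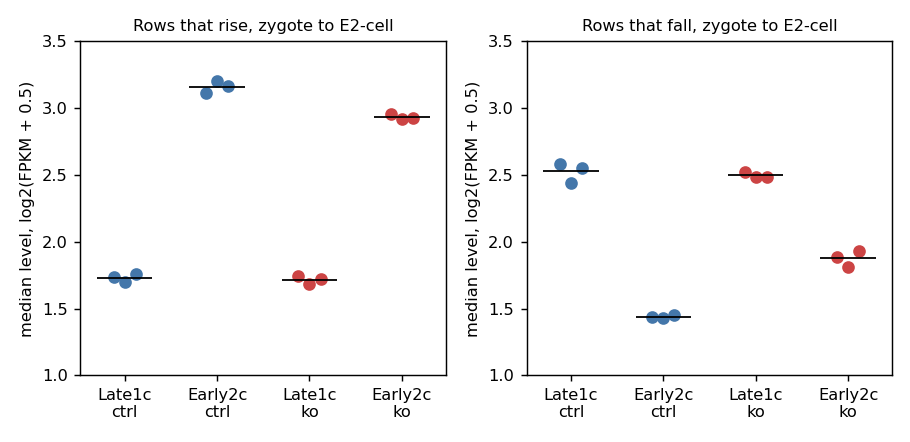
Median level, log2(FPKM + 0.5), over the 2516 members that rise (left) and the 3533 that fall (right) from zygote to E2-cell in the stage series, with 1 point per library and a line at the mean of 3. The Early2c knockout libraries lie at 2.92 to 2.95 for the risers, below the controls at 3.11 to 3.20, and at 1.81 to 1.93 for the fallers, above the controls at 1.43 to 1.45.

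Late1c libraries of both genotypes overlapped in both medians, at 1.69 to 1.74 (knockout) and 1.70 to 1.76 (control) for the risers, and at 2.48 to 2.52 and 2.44 to 2.58 for the fallers. At Early2c no knockout library overlapped a control. The profiles as a whole followed: over 13180 rows the correlation of log2 levels between Early2c and Late1c libraries was 0.831 to 0.840 in the knockout and 0.729 to 0.762 in the controls, while Late1c libraries of the 2 genotypes correlated at 0.983 to 0.992.

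The median difference is given here by the size of the stage change, as deposited only, with no test between sizes. The centre over all rows tested was 0.13 as deposited. Fallers that lose under 1 (log2) from zygote to E2-cell had a median difference of 0.31 (1655 members), those that lose 1 to 2 had 0.49 (1535), and those that lose 2 to 4 had 0.58 (340). Among the risers, those that gain 2 to 4 had a median difference of -0.49 (439 members, 211 called lower and 41 higher), while those that gain 4 or more had -0.06 (160 members, 40 lower and 29 higher). The most strongly induced genes of the stage series had medians of 4.72 in the knockout and 4.81 in the controls, against 2.69 and 3.46 for the risers of 2 to 4. How near these medians lie may depend on the scaling. The 28 genes of 2-cell families described below had a median difference of -0.06 as deposited and -0.20 by the median of ratios.

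The largest rises of the knockout step were in multi-copy 2-cell families. Reads can be shared among their near-identical copies, so each value may stand for several loci. Obox4-ps23 (chr7:15263943-15265656, plus strand), a pseudogene of the Obox homeobox family, had 0.737, 0.643 and 0.391 FPKM at Late1c and 234, 224 and 221 FPKM at Early2c in the knockout, a change of 7.72 (SE 0.11, adjusted p = 8.0e-14). It stood at 150.3, 176 and 176 FPKM in the Early2c controls, below every knockout library, and its rise was 1.13 larger in the knockout (SE 0.15, adjusted p = 1.9e-04). Gm8332 rose from 0.32 ± 0.32 to 96.8 ± 7.5 FPKM (mean ± SD, n = 3), by 6.95 against 7.0 in the controls. Gm4340, of a family of unnamed coding genes expressed at this stage, rose from 0.17 ± 0.058 to 65.0 ± 5.4 FPKM, by 6.61 against 6.52.

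The Zscan4 family, zinc finger genes that mark the 2-cell state, rose in all 6 members with a median of 5.77 in the knockout and 6.07 in the controls, where the median over all rows tested was -0.02 and -0.15. Their summed Late1c level in the knockout was 2.84 to 4.17 FPKM. A gene under 1 FPKM in every Late1c knockout library could be a member only by rising. The difference was called lower for 2 and higher for 0 of the 6 as deposited, with a median of -0.30, and lower for 4 and higher for 0 under both other scalings, with medians of -0.46 and -0.38. Zscan4e was at 0.0949, 0.0599 and 0.0745 FPKM at Late1c and at 61.3, 53.6 and 52.4 FPKM at Early2c in the knockout, and at 57.3, 56.9 and 55.2 FPKM in the Early2c controls. The Early2c ranges overlap, and the difference of its steps of 6.61 and 6.37 was not called (0.23, SE 0.09, adjusted p = 0.0715). With a pseudocount of 0.1 FPKM it was called, at 0.69 (adjusted p = 0.00261). Zscan4c stood at 46.3, 45.5 and 46.6 FPKM in the knockout and at 67.0, 68.6 and 68.0 in the controls at Early2c, and its rise of 4.85 was 0.37 smaller than that of the controls (SE 0.09, adjusted p = 0.0055).

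Of 28 listed genes of other 2-cell families (among them Usp17l, Tcstv and Tdpoz genes) all 28 were members and rose, with a median of 5.05 in the knockout and 4.95 in the controls, and the difference was called higher for 3 and lower for 3 (2 and 6 by the median of ratios). Their summed Late1c level in the knockout was 11.8 to 12.5 FPKM, so many could be members only by rising. Usp17lc, a deubiquitinase, rose from 0.361 ± 0.069 to 48.6 ± 5.0 FPKM, a rise 0.88 larger than in the controls (adjusted p = 0.0083), which started from 1.37 ± 0.50 and reached 56.1 ± 4.2. Zfp352, a zinc finger gene of the 2-cell stage, rose from 0.0531 ± 0.0052 to 35.7 ± 2.3 FPKM, and the controls from 0.111 ± 0.032 to 37.9 ± 2.8 (difference 0.06, SE 0.10, adjusted p = 0.70). Ubtfl1, an HMG-box gene, rose from near 0 to 9.35 ± 0.56 FPKM, against 9.57 ± 0.88 in the controls.

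Of 31 member genes listed as regulators of genome activation 16 rose and 8 fell in the knockout step, 13 rose and 11 fell in the control step, and the difference was called higher for 10 and lower for 1 (8 and 6 by the median of ratios). Duxf3, a double homeobox transcription factor that activates MERVL and Zscan4, had 0.469, 0.548 and 0.577 FPKM at Late1c and 6.75, 8.11 and 5.26 at Early2c in the knockout, against 4.04, 3.19 and 3.88 in the Early2c controls. Every Early2c knockout library was above every control, and the rise of 2.79 was 1.0 larger (SE 0.20, adjusted p = 0.0021). Dppa4, a chromatin factor upstream of Dux, rose from 2.94 ± 0.31 to 5.01 ± 0.26 FPKM (0.68, adjusted p = 7.7e-04), while the controls went from 3.81 ± 0.51 to 3.5 ± 0.81 (-0.12, adjusted p = 0.42). Without Early2c_MT2Mm_ctrl replicate 2 the control step of Dppa4 was -0.28 and called (adjusted p = 0.0446).

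Histone genes rose in both genotypes. Of 59 core histone members 54 rose and 0 fell in the knockout, with a median of 0.94 against 1.03 in the controls, and the difference was called higher for 2 and lower for 0 as deposited, but higher for 1 and lower for 6 by the median of ratios. Hist2h2ac, a core histone, had 3.32, 0.984 and 0.460 FPKM at Late1c and 22.0, 18.7 and 18.1 at Early2c in the knockout. Hist1h1b, a somatic linker histone, rose from 0.184 ± 0.19 to 14.4 ± 1.9 FPKM (4.47, SE 0.21). Its difference of 0.61 was not called, but was without Late1c_MT2Mm_ko replicate 3 (0.83, adjusted p = 0.0365). H1foo, the linker histone of the oocyte, fell from 323 ± 17 to 78.0 ± 1.2 FPKM. H1foo fell by 2.04 in the knockout and by 1.53 in the controls, so here the knockout fell further (difference -0.51, SE 0.10, adjusted p = 0.0020). All 13 protein-coding genes of the mitochondrial genome rose in both, with medians of 1.17 and 1.27; mt-Nd1, a complex I subunit, went from 616, 413 and 447 FPKM to 1299, 1119 and 1269.

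Of 29 members of a p53 and DNA damage list 14 rose and 9 fell in the knockout, 15 rose and 11 fell in the controls, and the medians were 0.15 and 0.19. Sesn2, a stress-induced inhibitor of mTORC1 signalling, rose from 0.611 ± 0.084 to 8.92 ± 0.41 FPKM, and its rise of 3.09 was 0.67 larger than in the controls (SE 0.14, adjusted p = 0.0030). Bag3, a co-chaperone of Hsp70, stood at 7.52, 6.75 and 7.17 FPKM at Early2c in the knockout and at 3.5, 3.58 and 2.52 in the controls, with no overlap, from 0.0512 FPKM or less in every Late1c library.

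The largest falls included RNAs known from the oocyte. Txnip, a regulator of glucose uptake and redox state, had 236, 201 and 179 FPKM at Late1c and 20.3, 16.6 and 18.8 at Early2c in the knockout, a change of -3.43 (SE 0.13, adjusted p = 6.3e-10). In the controls it reached 9.19, 7.86 and 11.7 FPKM, below every knockout library, and the fall was smaller in the knockout by 0.88 (SE 0.19, adjusted p = 0.0035). Ccdc117 fell from 179.6 ± 3.2 to 21.9 ± 0.94 FPKM (-3.01), against -3.28 in the controls. Bub1b, the spindle checkpoint kinase BubR1, fell from 98.5 ± 2.1 to 12.1 ± 0.81 FPKM (-2.97), against -2.68 in the controls. That difference of -0.29 was not called as deposited, but was by the median of ratios (-0.46, adjusted p = 0.00639), by the protein-coding sum (-0.38, adjusted p = 0.0287) and without Late1c_MT2Mm_ctrl replicate 1 (-0.38, adjusted p = 0.0318). Dnmt1, the maintenance DNA methyltransferase, fell from 202 ± 12 to 40.7 ± 2.8 FPKM (-2.30), and from 196 ± 4.2 to 25.6 ± 1.4 in the controls, a difference of 0.62 (SE 0.09, adjusted p = 2.5e-04).

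Of 42 members among genes of the egg coat, oocyte growth factors and other oocyte genes, 16 rose and 23 fell in the knockout with a median of -0.40, and 16 rose and 23 fell in the controls with a median of -0.82. The difference was called higher for 14 and lower for 4 (11 and 14 by the median of ratios), so its direction over the list turns with the scaling. Gm813 (chr16:58613675-58616978, minus strand), abundant at Late1c, had 183, 163 and 171 FPKM at Late1c and 22.5, 18 and 27.6 at Early2c in the knockout, and 3.93, 6.12 and 4.62 FPKM at Early2c in the controls. Its fall was smaller by 2.22 in the knockout (SE 0.24, adjusted p = 4.6e-05). Zar1l (chr5:150507055-150518164, minus), an RNA-binding zygote arrest paralog, had 75.4, 69.8 and 75.1 FPKM at Early2c in the knockout and 22.5, 20.3 and 21.8 in the controls, from 209.9 ± 1.4 and 227 ± 13 FPKM at Late1c. Its difference was 1.86 (SE 0.08, adjusted p = 5.1e-07). Zp3, a zona pellucida glycoprotein, fell from 30.9 ± 1.5 to 9.42 ± 0.34 FPKM (-1.66), against -1.85 in the controls, and that difference of 0.19 (SE 0.17) was not called.

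The subcortical maternal complex and the Nlrp genes, which build the cytoplasmic lattices of the egg, had 16 members of which 4 rose and 7 fell in the knockout (median -0.23) and 3 rose and 11 fell in the controls (median -0.75). The difference was called higher for 9 and lower for 1, or 5 and 2 by the median of ratios. Ooep, a core member, had 96.5, 77.9 and 93.4 FPKM at Early2c in the knockout and 29.0, 36.7 and 32.9 in the controls, a difference of 1.56 (SE 0.15, adjusted p = 2.3e-05). Padi6, needed for the lattices, stood at 99 ± 12 FPKM at Early2c in the knockout and 42.8 ± 4.1 in the controls (difference 1.29). Khdc3, a KH-domain member, moved the other way: it fell from 8.20 ± 0.67 to 2.13 ± 0.49 FPKM in the knockout and from 6.24 ± 1.5 to 3.33 ± 0.037 in the controls (difference -0.95, SE 0.22, adjusted p = 0.00505).

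Factors that store or destroy egg RNA moved both ways. Of 30 RNA decay members 12 rose and 13 fell in the knockout (median -0.12) and 12 rose and 17 fell in the controls (-0.28), with the difference higher for 9 and lower for 4, or 3 and 9 by the median of ratios. Pabpn1l, an adaptor for deadenylation of egg RNA, had 23.4, 24.7 and 24.4 FPKM at Early2c in the knockout and 9.70, 9.68 and 10.6 in the controls (difference 1.36, SE 0.08, adjusted p = 1.5e-06). Upf1, the helicase of nonsense-mediated decay, fell further in the knockout, from 87.1 ± 2.7 to 27.2 ± 2.3 FPKM, than in the controls, from 71.3 ± 7.4 to 33.9 ± 2.8 (difference -0.61, SE 0.12, adjusted p = 0.0022). Patl2, a translational repressor of the oocyte, fell from 10.8 ± 0.2 to 1.82 ± 0.24 FPKM (-2.29), a smaller fall by 0.54 (SE 0.13, adjusted p = 0.0063).

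Lists of cellular machinery differed in how far they fell. Proteasome subunits had 33 members, of which 3 rose and 26 fell in the knockout with a median of -0.77, and 3 rose and 27 fell in the controls with a median of -1.53. The difference was called higher for 23 and lower for 1, against 25.7% and 11.6% of all rows tested, and for 22 and 3 by the median of ratios. Psmd12, a subunit of the regulatory particle, had 12.1, 10.9 and 11.4 FPKM at Early2c in the knockout and 4.27, 3.64 and 3.44 in the controls (difference 1.5, SE 0.11, adjusted p = 3.9e-06). Psma7, of the core particle, had 15.7 ± 1.2 and 5.83 ± 0.60 FPKM there (difference 1.54).

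Respiratory chain and ATP synthase subunits of the nuclear genome had 61 members, of which 5 rose and 41 fell in the knockout (median -0.51) and 8 rose and 46 fell in the controls (-1.03), with the difference higher for 28 and lower for 0, or 23 and 1 by the median of ratios. After either other scaling 8 of them rose in the knockout. Uqcrc2, a complex III core subunit, stood at 10.9 ± 0.93 FPKM at Early2c in the knockout and 3.74 ± 0.39 in the controls (difference 1.53, SE 0.12, adjusted p = 7.1e-06). Ribosome biogenesis had 49 members, 11 rising and 32 falling in the knockout (-0.41) and 8 and 33 in the controls (-0.87), with the difference higher for 30 and lower for 1, or 27 and 3. Bms1, a GTPase of the small subunit processome, fell from 329 ± 19 to 97.2 ± 7.7 FPKM in the knockout and from 336 ± 22 to 35.3 ± 4.0 in the controls (difference 1.48). Of 29 chaperone members the difference was higher for 16 and lower for 2 (15 and 4), with Hsp90aa1, a cytosolic Hsp90, at 379, 380.1 and 355 FPKM in the knockout and 173, 148 and 174 in the controls at Early2c.

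Other lists of this kind showed smaller median differences. The housekeeping list had 18 members, of which 9 rose and 1 fell in the knockout (median 0.14) and 8 rose and 7 fell in the controls (-0.04), with the difference higher for 7 and lower for 0, or 5 and 2 by the median of ratios. For 49 splicing factors the difference was higher for 17 and lower for 3, or 9 and 6 by the median of ratios. For 50 translation initiation factors it was higher for 20 and lower for 4, or 15 and 9. For 80 cytosolic ribosomal proteins, 24 of which rose and 39 fell in the knockout, it was higher for 28 and lower for 2, or 23 and 7. For 26 RNA polymerase II members it was higher for 12 and lower for 2, or 9 and 2, and for 20 members of transport into the nucleus higher for 3 and lower for 2, or 2 and 3.

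**Figure D3:**
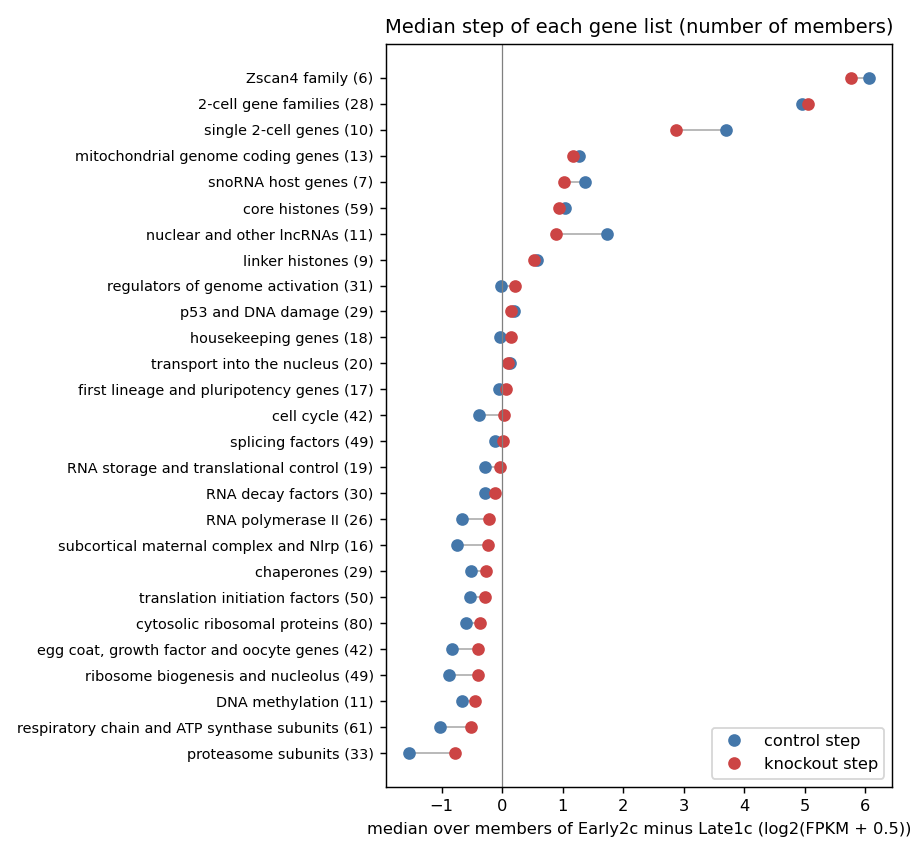
Median over the members of each gene list of the knockout step (red) and of the control step (blue), as Early2c minus Late1c on log2(FPKM + 0.5), with the number of members in brackets and lists of under 6 members left out. Proteasome subunits lie at -0.77 (knockout) and -1.53 (control), and the nuclear and other lncRNAs at 0.88 and 1.73.

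Some genes that fell in the controls were not called in the knockout. Kpna2 (chr11:106988629-106999541, minus strand), an importin alpha that carries proteins into the nucleus, had 249, 217 and 233 FPKM at Late1c and 255, 224 and 257 at Early2c in the knockout, and 263, 228 and 258 and then 56.3, 61.4 and 60.2 FPKM in the controls. Its knockout step was 0.07 (SE 0.08, adjusted p = 0.39), its control step -2.06, and the difference 2.14 (SE 0.11, adjusted p = 8.5e-07). Eef1a1, a translation elongation factor, stood at 197 ± 9.1 FPKM at Early2c in the knockout and 94.6 ± 6.4 in the controls, with a knockout step of 0.06 and a difference of 1.15 (SE 0.09, adjusted p = 7.8e-06). After scaling to the protein-coding sum the knockout step of Eef1a1 was called higher (0.15, adjusted p = 0.0425). Arg2, an arginase of mitochondria, was called in both: it fell by 0.75 in the knockout (adjusted p = 4.6e-05) and by 2.15 in the controls.

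Cell cycle genes were mixed in the same way, with 42 members of which 17 rose and 18 fell in the knockout (median 0.04), 14 rose and 25 fell in the controls (-0.39), and the difference was higher for 23 and lower for 2, or 19 and 8 by the median of ratios. Fbxo5, the inhibitor of the anaphase-promoting complex known as Emi1, had 34.4, 28.1 and 39.3 FPKM at Early2c in the knockout and 10.1, 11.8 and 10.3 in the controls (difference 1.70, SE 0.16, adjusted p = 2.1e-05). Cdk1, the mitotic kinase, was at 7.78 ± 0.13 and then 8.75 ± 0.84 FPKM in the knockout, and at 8.32 ± 1.6 and then 3.67 ± 0.25 in the controls (difference 1.22, SE 0.17).

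Members that moved in opposite directions were few. 142 rose in the knockout and fell in the controls, and 50 fell in the knockout and rose in the controls. Ube2c, the ubiquitin-conjugating enzyme of the anaphase-promoting complex, was chosen for this after its values were seen: it had 21.9, 20.1 and 21.6 FPKM at Late1c and 31.8, 30.4 and 28.7 at Early2c in the knockout, and 10.9, 14.2 and 14.5 at Early2c in the controls (difference 1.26, SE 0.12, adjusted p = 2.5e-05). Ipo8, an import receptor and a member of the nuclear transport list, fell from 45.7 ± 1.5 to 39.4 ± 1.6 FPKM in the knockout and rose from 41.0 ± 1.5 to 45.9 ± 1.6 in the controls. Its fall of 0.21 was not called after scaling to the protein-coding sum (adjusted p = 0.052).

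**Figure D4:**
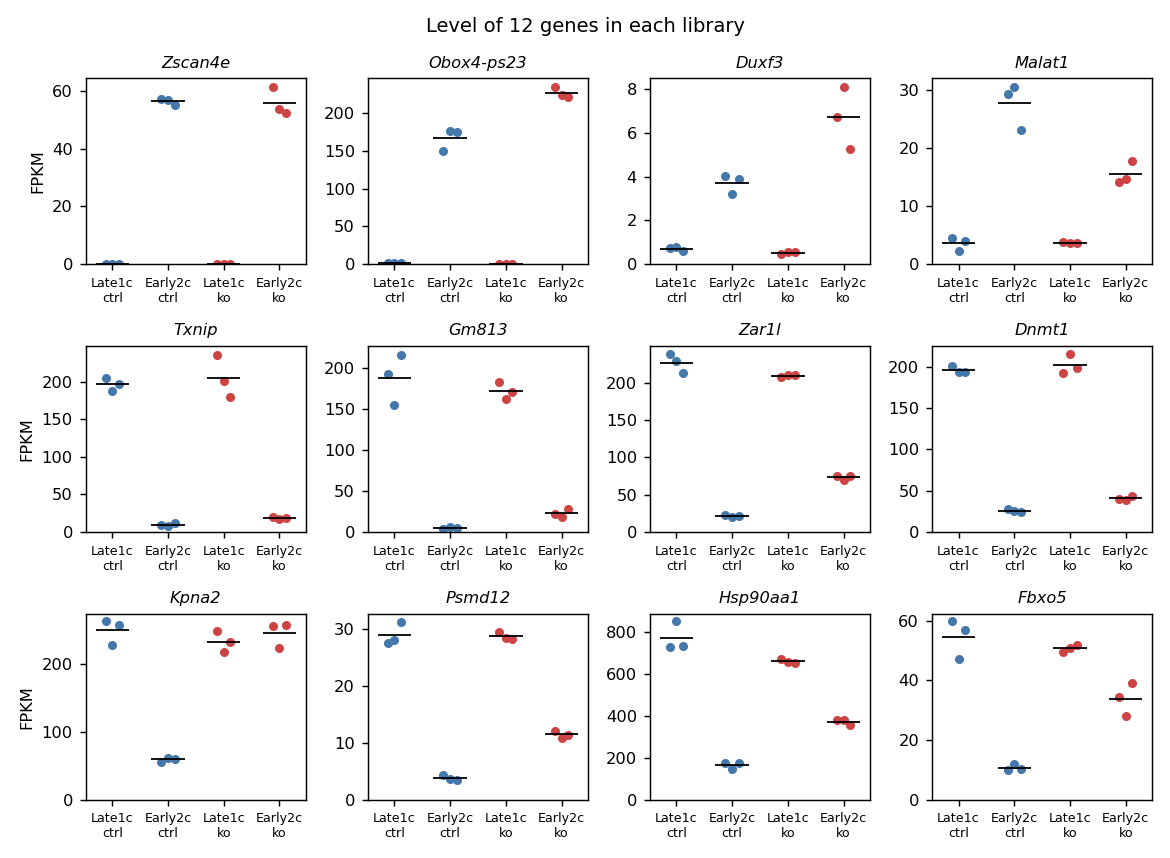
FPKM of 12 genes in each of the 12 libraries, with controls in blue, knockouts in red and a line at the mean of 3. Zscan4e reaches 52.4 to 61.3 FPKM at Early2c in the knockout and 55.2 to 57.3 in the controls, while Kpna2 stays at 217 FPKM or more in the knockout and falls to 61.4 or less in the controls.

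Noncoding RNAs moved both ways. Of 11 members on a list of nuclear and other lncRNAs 8 rose and 3 fell in the knockout (median 0.88), 8 rose and 2 fell in the controls (1.73), and the difference was lower for 6 and higher for 0, or lower for 8 by the median of ratios. After scaling to the protein-coding sum 1 of these 11 fell in the knockout. Platr25 on this list is annotated as protein-coding and carries the 18-base sequence shown above. Malat1, an abundant RNA of nuclear speckles, rose from 3.86, 3.60 and 3.65 FPKM to 14.1, 14.6 and 17.8 in the knockout and to 29.3, 30.6 and 23.2 in the controls. Its difference was -0.91 (SE 0.28, adjusted p = 0.023), and with 1 library left out it was not called in 3 of 12 cases: without Early2c_MT2Mm_ctrl replicate 1 (-0.86, adjusted p = 0.0504) or 2 (-0.83, 0.056), or Early2c_MT2Mm_ko replicate 1 (-0.84, 0.0552). Rpph1, the RNA of RNase P, had 363, 378 and 311 FPKM at Early2c in the knockout and 731, 573 and 574 in the controls, a difference of -0.90 (SE 0.18, adjusted p = 0.0022).

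By class, 221 of 667 annotated lncRNA members rose and 162 fell in the knockout, 200 rose and 270 fell in the controls, and the difference was higher for 149 and lower for 66. Of 1139 members named XLOC, which are assembled loci without a position in the table, 456 rose and 202 fell in the knockout, with the difference higher for 249 and lower for 214. XLOC_027969 had 2.29, 1.91 and 2.71 FPKM at Early2c in the knockout and 18.6, 20.6 and 15.2 in the controls, from 0.0529 FPKM or less in every Late1c library, and its difference of -2.68 (SE 0.18, adjusted p = 2.6e-06) was among the largest. Gm47897, a lncRNA listed at 0 in all Late1c knockout libraries, had 2.72, 1.99 and 2.92 FPKM at Early2c in the knockout and 11.5, 13.7 and 11.3 in the controls. Of 9049 protein-coding members the difference was higher for 2753 and lower for 769. These counts by class are as deposited. Over all rows tested 33.9% rose and 36.6% fell in the knockout step, and 33.5% and 45.7% in the control step. The difference was called higher for 25.7% of all rows tested and lower for 11.6%. Over all members it was higher for 3338 and lower for 1141 as deposited, but 2249 and 2098 by the median of ratios.

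The genes that carry the 18-base sequence shown above were among those that rose less, and mainly the noncoding ones. Of 39 annotated lncRNA carriers 38 rose in the knockout with a median of 2.42 and 37 in the controls with a median of 3.46. Many of them lay under 1 FPKM in every Late1c knockout library, so by the member rule they had to rise in the knockout. Carriers that stayed under 1 FPKM at both knockout stages are left out. The sequence was chosen for its share among stage risers, so these rises are no separate result. For these 39 the difference was lower for 27 and higher for 3 as deposited, with a median of -1.02. As deposited it was lower for 66 and higher for 149 among all 667 annotated lncRNA members, of which 162 fell in the knockout step. By the median of ratios it was lower for 30 and higher for 3 of the 39 carriers. The summed level of these 39 was 13 to 19 FPKM in the Late1c knockout libraries and 17.8 to 20.4 in the controls. At Early2c it was 142.8 to 151.8 FPKM in the knockout and 271.7 to 306.8 in the controls, with no overlap. Of 51 protein-coding carriers 34 rose and 9 fell in the knockout (median 0.48), and the difference was lower for 9 and higher for 5, or 19 and 2 by the median of ratios. A gene counted as a carrier if any annotated transcript held the sequence, while FPKM is given per gene. Fbxo34 (154 ± 4.4 FPKM at Late1c in the knockout) holds it in a transcript of 613 bases. Wtap (61.2 ± 3.2 FPKM there) holds it in a transcript of 593 bases. The step of such a gene cannot show what that transcript did, which limits the contrast of coding and noncoding carriers.

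Smaller rises were not limited to carriers. Of 21 annotated lncRNA members without the sequence that gain at least 2 (log2) from zygote to E2-cell, the difference was lower for 12 and higher for 1 (median -0.80). Of 32 with the sequence it was lower for 26 and higher for 3 (median -1.09). Among protein-coding members with such a gain, it was lower for 3 and higher for 0 of 13 with the sequence, and lower for 28 and higher for 27 of 192 without. The test of a difference between carriers and other genes was not made.

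Single carriers show the size of it. Gm28826 was listed at 0 in all Late1c knockout libraries and had 1.72, 1.57 and 1.33 FPKM at Early2c, against 7.13, 6.69 and 8.51 in the Early2c controls (adjusted p of the difference 8.4e-06). Gm33466, also listed at 0 at Late1c in the knockout, had 5.71, 6.57 and 4.79 FPKM against 15.1, 15.4 and 16.3. Gm44693 had 3.5, 8.02 and 5.66 FPKM against 13.8, 20.0 and 16.8, and was listed at 0 in all 6 Late1c libraries. In these 3 lncRNAs no Early2c knockout library reached the lowest control. Platr31 had 1.37, 1.69 and 1.97 FPKM against 4.79, 6.99 and 6.11 (difference -1.70, SE 0.26, adjusted p = 4.6e-04), and Gm38258 had 3.71, 3.91 and 4.12 against 10.8, 12.6 and 9.97 (-1.28, SE 0.16).

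Coding carriers were split, with values per gene and not per transcript. B020004J07Rik, on the list of 2-cell families, had 6.79, 7.45 and 6.81 FPKM at Early2c in the knockout and 15.2, 16 and 16.5 in the controls (difference -1.08, SE 0.12, adjusted p = 4.0e-05). Pglyrp1, a peptidoglycan recognition protein, had 1.16, 1.79 and 1.71 FPKM against 6.87, 6.01 and 5.43 (-1.59, SE 0.26). Gm4340 and Ubtfl1, named above, carry it too. Gm3286, present at Late1c at 15.1 ± 1.3 FPKM, fell to 7.88 ± 0.51 in the knockout and to 4.11 ± 0.15 in the controls (difference 1.10).

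The bases that follow the sequence differed between these sets, a split chosen after values of single genes were seen. The 8 bases CACAGCTG followed it in 68 of the 96 carriers, and the joined sequence stood in transcripts of 156 of 55450 GENCODE genes (0.281%), and its reverse complement in 9. Of 33 lncRNA carriers with these 8 bases, on 14 chromosomes, the difference was lower for 27 and higher for 0. Of 6 lncRNA carriers with other bases, all on chr13:67226997-68491389, it was lower for 0 and higher for 3. Those 3, Gm7969, Gm48419 and Gm48423, lay lower in the knockout than in the controls at Late1c, where all were below 1 FPKM. Among protein-coding carriers the difference was lower for 9 and higher for 3 of 30 with these bases, and lower for 0 and higher for 2 of 21 with others. Those 2, D5Ertd577e and Gm3286 on chromosome 5, fell in both genotypes, so that higher stands for a smaller fall. Several coding carriers on chromosome 10 have transcripts of 1246 bases with the sequence at the same position, so reads may be shared among them. Gm7969, of the chromosome 13 group, had 7.17, 6.51 and 7.06 FPKM at Early2c in the knockout and 5.92, 5.95 and 6.82 in the controls (difference 0.49, SE 0.12, adjusted p = 0.0070). Its Early2c ranges overlap, and its Late1c level was 0.084 ± 0.024 FPKM in the knockout and 0.244 ± 0.035 in the controls. Of that group, 5 have near-identical stretches, so reads may be shared among them, while the stretch of Gm49064 differs from theirs at many bases. Whether the split follows the letters, the locus or the family cannot be told apart.

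Among protein-coding members the median exonic length was 4258 bp for those that rose, 4412 bp for those that fell and 4668 bp for those not called in the knockout step. Genes with a single annotated exon made up 5.72% of those that rose (146 of 2552), 1.24% of those that fell (51 of 4122) and 2.06% of the rest (49 of 2375).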

How the data were processed

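Total RNA-seq of 12 MT2Mm libraries and the zygote and E2-cell columns of the stage series was used. The deposited values are FPKM, made by the authors; per the submitters' processing notes the tools included HISAT2 2.1.0, StringTie 1.3.4d, Cuffdiff 2.2.1, Cufflinks and cutadapt 1.18, and the build was GRCm38; roles and order are not stated. Per the labels' protocols, libraries came from TruSeq Stranded or, for small amounts, SMARTer Stranded v2 kits, and the kit of each library is not stated there. Depth is unknown. FPKM is relative to the library, and 15 of 43 sample columns were not used.

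Rows with at least 1 FPKM in 3 of the 12 columns entered 1 limma fit (3.58.1, R 4.3.3) of 4 groups on log2(FPKM + 0.5), eBayes with a trend; calls needed an adjusted p (Benjamini-Hochberg) below 0.05 over all 13180 rows tested; the stage fit kept rows at 1 FPKM in 2 of 16 columns. The fit was tested on simulated data. 54409 of 54446 Ensembl rows matched GENCODE M21 by identifier. The replicates are labelled samples; nothing says that they are separate litters, so p-values measure the spread between these libraries. Replicate numbers do not pair them (correlation of residuals between equal numbers -0.138 to 0.153).

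The members, gene lists, tests and alternatives were chosen with earlier results of these data known. Genes named come from at most 5 in a list, taking those called before others, the 8 largest rises, falls and differences each way, and up to 3 XLOC loci, and some that qualify are left out. Carriers were also named. Alternatives were pseudocounts of 0.1 and 1 FPKM, other filters and scalings, eBayes without a trend, fits of 2 groups alone, the replicate number as a block and each library left out.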

Additional observations from a re-analysis of the deposited data

Results flagged for a closer look

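For 44 genes named above, the knockout step differed from the control step by the interaction term of the limma fit (adjusted p under 0.05). Values are the knockout step minus the control step on log2(FPKM + 0.5), to be read against a median of 0.13 over all rows tested. Causes were not tested.

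Rises that were larger in the knockout were those of Obox4-ps23 (1.13), Bag3 (1.12), Duxf3 (1.0), Usp17lc (0.88), Sesn2 (0.67) and Gm7969 (0.49). Dppa4 (0.80) rose in the knockout and was not called in the controls. Usp17lc and Gm7969 had a lower Late1c level in the knockout than in the controls. Falls that were smaller in the knockout, or absent there, were those of Gm813 (2.22), Kpna2 (2.14), Zar1l (1.86), Fbxo5 (1.70), Ooep (1.56), Psma7 (1.54), Uqcrc2 (1.53), Psmd12 (1.5), Bms1 (1.48), Arg2 (1.40), Hsp90aa1 (1.39), Pabpn1l (1.36) and Padi6 (1.29). The same held with smaller values for Ube2c (1.26), Cdk1 (1.22), Eef1a1 (1.15), Gm3286 (1.10), Txnip (0.88), Dnmt1 (0.62), Patl2 (0.54) and Ccdc117 (0.27).

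Rises that were smaller in the knockout were those of XLOC_027969 (-2.68), Platr31 (-1.70), Pglyrp1 (-1.59), Gm38258 (-1.28), B020004J07Rik (-1.08), Malat1 (-0.91), Rpph1 (-0.90) and Zscan4c (-0.37). Gm28826 (adjusted p = 8.42e-06), Gm33466 (adjusted p = 3.05e-05), Gm47897 (adjusted p = 3.17e-05) and Gm44693 (adjusted p = 0.00233) were listed at 0 in all 3 Late1c knockout libraries, so no difference of steps is given for them. Falls that were larger in the knockout were those of Khdc3 (-0.95), Upf1 (-0.61) and H1foo (-0.51), and Ipo8 (-0.37) fell in the knockout and rose in the controls.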

How the results depend on the processing

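The total counts of called members in each comparison stayed within 1.5 times the reported ones under every alternative run, while 1 count by direction did not (the differences called lower, given here). With 1 of the 12 libraries left out, 7896 to 8602 members were called in the knockout step, 9126 to 9499 in the control step and 3753 to 4711 for the difference, and with 1 zygote or E2-cell column left out, chosen after the data were seen, 6611 to 9578 rows were called in the stage fit. With the replicate number as a block 8426, 9501 and 4332 members were called in the knockout step, the control step and the difference, and 8327, 9432 and 4181 of the reported calls were kept. The count of differences called lower in the knockout went from 1141 to 2098 under the median of ratios. For the genes named, the knockout step kept its call and direction in 1132 of 1134 runs, and the difference in 1056 of 1080, none reversed. The difference of Ccdc117 lost its call in 15 runs, including both scalings (0.10, adjusted p = 0.48, and 0.19, adjusted p = 0.135) and the replicate block (adjusted p = 0.056), and that of Malat1 in 4. The differences of Bub1b, Hist1h1b and Zscan4e gained a call in 5 runs, as given beside them. FPKM without counts gives no limit of detection.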
